A study of Mus musculus with 12 samples.

Results

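The 9 genes of intestinal gluconeogenesis and glutamine use were followed across the 4 groups of a fasting study on mouse small intestine. Every probe set of the array whose gene symbol was Pck1, Pck2, G6pc, Fbp1, Slc37a4, Pcx, Glud1, Got1 or Gpt was taken, which gave 16 of the 22690 probe sets of the array and 9 of the 12394 genes with a probe set of their own. No probe set listed 1 of these genes together with another gene. The animals were male mice of 14 weeks, either wild-type (129S1/SvImJ) or PPARα-null (129S4/SvJae), and each genotype was either fed with free access to food or fasted for 24 h. RNA of the complete small intestine was hybridized to Affymetrix 430A arrays, with 3 biological replicates per group and 12 arrays in total. The labels of the fed arrays give the strain of both genotypes only as 129Sv. The diet before the experiment is given as AIN93M in the design of the series and as standard chow in the study's methods, and neither source says whether a replicate was 1 mouse or a pool. The deletion of Ppara and the substrain of the mice cannot be told apart in any comparison between genotypes. Because the RNA came from the whole organ, fewer cells of a type and less RNA per cell cannot be told apart either.

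Gluconeogenesis makes glucose from lactate, glycerol and amino acids, and besides liver and kidney the small intestine carries its enzymes. Pyruvate carboxylase makes oxaloacetate, phosphoenolpyruvate carboxykinase turns it into phosphoenolpyruvate, fructose-1,6-bisphosphatase passes the later one-way step, and glucose-6-phosphatase releases free glucose after a transporter has carried glucose 6-phosphate into the endoplasmic reticulum. Enterocytes burn glutamine as a main fuel, and the glutamate formed from it reaches the citric acid cycle through glutamate dehydrogenase or through the aminotransferases, which hand its nitrogen to aspartate and alanine. PPARα is a nuclear receptor that is activated by fatty acids, and it controls a large part of the response of the liver to fasting.

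The fasted arrays and the fed arrays were deposited on different scales. Median intensity over all probe sets was 12.7 to 12.8 on the fed arrays and 11.1 to 11.3 on the fasted arrays, and the expressed probe sets read lower by a median of -0.32 on the log2 scale in the fasted state. This shift was not even over the range of levels, with -0.34 between 7 and 9 on the log2 scale and -0.17 above 11. Feeding state and processing set cannot be told apart. Changes upon fasting are therefore given relative to the common shift of -0.32 unless "as deposited" stands beside them, while intensities are always those deposited. A probe set was called when the unadjusted limma p was under 0.01 and the fold change over 1.3, and a difference in response between the genotypes was called at an adjusted p under 0.05. The description of the 3 arrays of fasted wild-type mice speaks of knockout mice while their titles and strain say wild-type. The Ppara probe set was at 58.7, 48.1 and 30.8 on these 3 arrays and at 13.2 or lower on every array of PPARα-null mice. On the arrays of fed wild-type mice it was at 19.87, 33.95 and 35.92, so that the level of 20 does not itself separate the genotypes.

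Fasting raised most of the genes in both genotypes. In wild-type mice 6 of the 11 probe sets tested rose and none fell, against 10% of all 9370 tested probe sets that rose and 7.43% that fell, and they belonged to Pck1, G6pc, Slc37a4, Fbp1 and Glud1. In PPARα-null mice 8 of the 11 rose and none fell, against 18.6% and 23.6% of all probe sets, with Got1 and Gpt added to the same 5 genes. The median change of the 11 probe sets was 0.75 in wild-type and 1.22 in PPARα-null mice, while the median over all tested probe sets was 0.03 and -0.02. As deposited, 6 members rose in wild-type mice against 2.49% of all probe sets and 1 fell against 31.7%, and in PPARα-null mice 7 rose against 8.16% and none fell against 43.4%. All 9 genes had at least 1 probe set with a mean above 20 in fed wild-type mice and were tested. The 5 probe sets that did not pass this level were the second one of Pck1 at 10.2 to 14.9, the second one of Pck2 at 6.43 to 9.65, and 3 of the 5 of Pcx, of which the highest read 11.1 to 17.5, and these are not called in either direction.

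**Figure D1:**
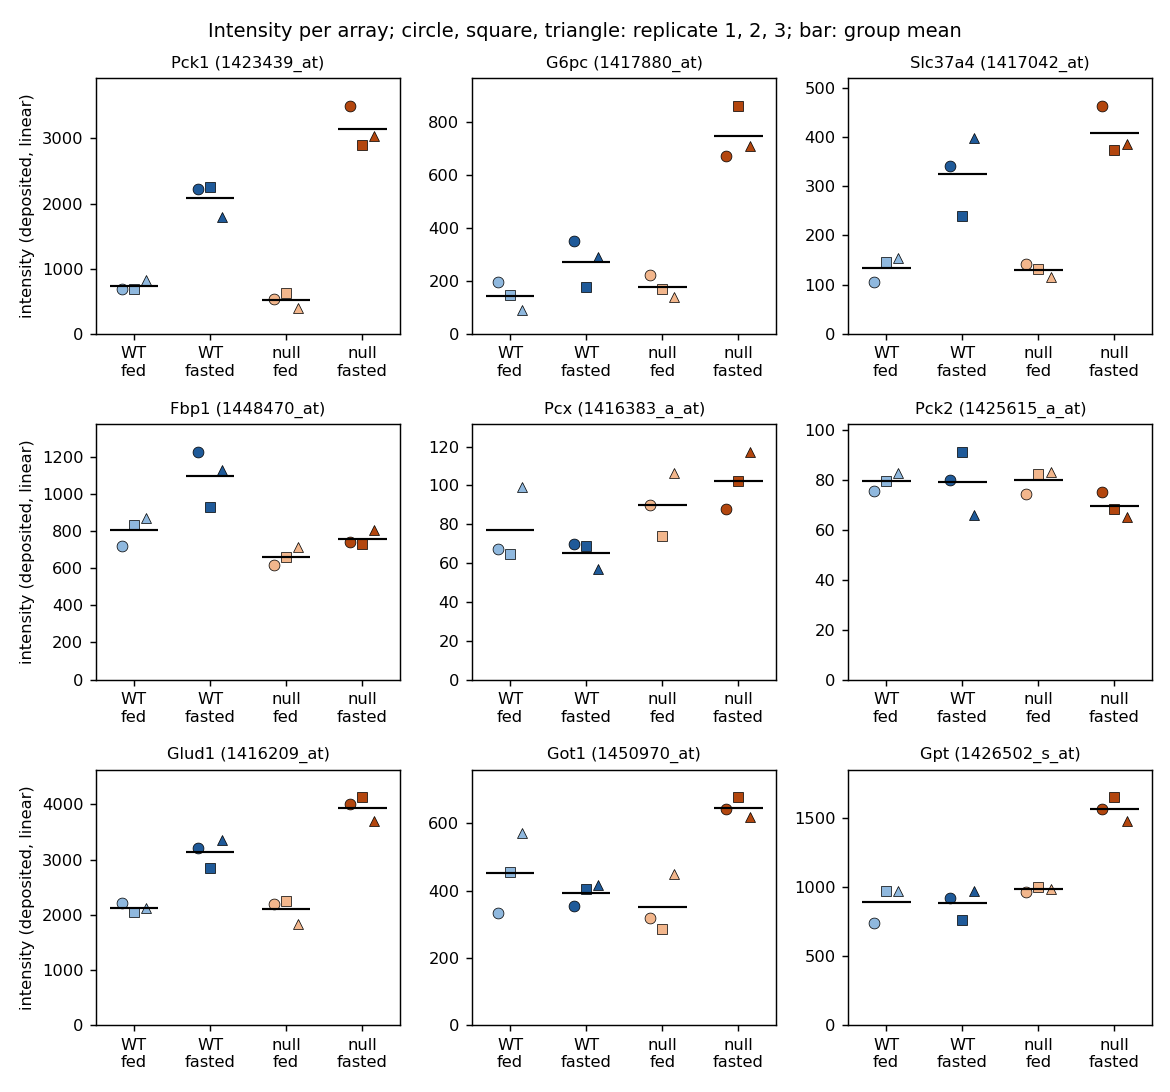
Deposited intensity (linear scale, axis from 0) of each gene on the 12 arrays, for its probe set with the highest mean. Points are single arrays, the symbol gives the replicate number within the group and the bar is the group mean of 3 arrays. For Pck1, Slc37a4, Fbp1 and Glud1 all fasted arrays of a genotype lie above its fed arrays, whereas Got1 and Gpt stand apart in fasted PPARα-null mice.

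Phosphoenolpyruvate carboxykinase 1 (Pck1, probe set 1423439_at), the cytosolic enzyme that commits oxaloacetate to glucose, showed the largest change of the 9 genes. Its intensity was 693.3, 683.7 and 822.6 in fed wild-type mice and 2216, 2251 and 1786 in fasted wild-type mice. In PPARα-null mice it was 527.0, 624.7 and 391.5 when fed and 3500, 2892 and 3031 when fasted. The lowest fasted array of either genotype was above the highest fed array, and the fasted PPARα-null arrays were above all others. Pck1 rose 3.53-fold in wild-type mice (log2 change 1.82, SE 0.16, adjusted p = 3.05e-05) and 7.71-fold in PPARα-null mice (log2 change 2.95, SE 0.16, adjusted p = 3.59e-08). These log2 changes were 1.50 and 2.63 as deposited.

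Glucose-6-phosphatase (G6pc, 1417880_at) is the enzyme of the endoplasmic reticulum that frees glucose. In fed wild-type mice it read 194.4, 146.5 and 89.1, and in fasted wild-type mice 350.8, 176.0 and 289.5, so that the deposited values of the groups overlapped. Relative to the common shift these values did not overlap. The PPARα-null mice had 223.0, 170.0 and 138.8 in the fed and 671.8, 859.8 and 706.5 in the fasted state, where no fasted array came near a fed one. The change was 2.39-fold in wild-type (log2 change 1.25, SE 0.29, adjusted p = 0.00830) and 5.31-fold in PPARα-null mice (log2 change 2.41, adjusted p = 1.84e-05). These log2 changes were 0.94 and 2.09 as deposited.

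The glucose 6-phosphate transporter (Slc37a4, 1417042_at) supplies G6pc with its substrate. Intensities were 104.8, 145.9 and 153.5 in fed wild-type mice and 340.5, 239.8 and 397.4 after fasting. Those of PPARα-null mice were 143.0, 132.2 and 114.7 and then 463.8, 374.1 and 387.0. Neither genotype had a fasted array within its fed range, and the fasted ranges of the genotypes overlapped. Slc37a4 rose 2.99-fold in wild-type (log2 change 1.58, adjusted p = 1.92e-04) and 3.91-fold in PPARα-null mice (log2 change 1.97, SE 0.18, adjusted p = 2.72e-06). As deposited the rises were smaller, with log2 changes of 1.26 and 1.65, and still called.

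Because these 3 genes had the largest changes upon fasting of the 9, the 250 bases before their RefSeq start sites are shown (GRCm38.p6, plus strand, 5′ to 3′; for Slc37a4, which has 3 start sites in the table, the first one). Capitals mark matches on either strand to TTACGT or ACGTCA, to CAAAACA or AGGTCA, and to TATAAA, strings that were chosen after the sequences had been seen. The sequences lie at chr2:173152823-173153072 for Pck1, chr11:101367466-101367715 for G6pc and chr9:44396696-44396945 for Slc37a4.
Pck1: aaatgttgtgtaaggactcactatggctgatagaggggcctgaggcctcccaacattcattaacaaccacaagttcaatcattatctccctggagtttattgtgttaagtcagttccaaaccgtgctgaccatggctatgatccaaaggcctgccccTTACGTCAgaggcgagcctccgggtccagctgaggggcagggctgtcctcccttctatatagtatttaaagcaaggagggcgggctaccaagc
G6pc: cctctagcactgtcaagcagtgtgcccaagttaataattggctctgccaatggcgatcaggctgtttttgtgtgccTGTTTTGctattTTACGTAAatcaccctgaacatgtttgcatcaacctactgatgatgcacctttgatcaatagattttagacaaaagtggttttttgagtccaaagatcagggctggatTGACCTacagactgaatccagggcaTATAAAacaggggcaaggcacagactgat
Slc37a4: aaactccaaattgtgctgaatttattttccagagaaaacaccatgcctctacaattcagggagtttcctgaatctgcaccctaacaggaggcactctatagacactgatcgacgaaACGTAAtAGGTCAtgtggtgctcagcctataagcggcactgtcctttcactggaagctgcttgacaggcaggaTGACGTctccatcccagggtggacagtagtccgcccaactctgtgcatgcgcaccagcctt
In the Pck1 window TTACGT and ACGTCA overlapped in 1 run of 8 bases, from 93 to 86 bases before the start. TTACGT was found on both strands of the G6pc window, between 162 and 155 bases before the start, beside CAAAACA on the opposite strand at 174 to 168 bases, AGGTCA on the opposite strand and TATAAA at 29 to 24 bases. The Slc37a4 window held TTACGT and ACGTCA on the opposite strand and AGGTCA on the printed strand. Of all 32851 windows of this length in the table, 2.4% held TTACGT, 6.47% ACGTCA, 5.56% CAAAACA, 14% AGGTCA and 12.4% TATAAA on either strand. Of the other genes, the window of Pck2 held CAAAACA and that of Got1 AGGTCA, whereas Fbp1, Pcx and Glud1 held none of the 5 strings in theirs. Gpt had no entry in the table. These matches describe letters only.

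Fructose-1,6-bisphosphatase (Fbp1, 1448470_at), which removes a phosphate from fructose 1,6-bisphosphate, rose less than the genes at the end of the pathway. It read 719.2, 832.4 and 871.6 in fed and 1229, 929.2 and 1131 in fasted wild-type mice. The values in PPARα-null mice were 615.1, 660.9 and 712.9 when fed and 741.7, 731.7 and 803.5 when fasted. As deposited the fasted PPARα-null arrays lay within the range of fed wild-type mice, but fed and fasted arrays were on different scales. Fbp1 rose 1.68-fold in wild-type mice (log2 change 0.75, SE 0.11, adjusted p = 8.64e-04) and 1.43-fold in PPARα-null mice (log2 change 0.51, adjusted p = 0.00203). As deposited, the change in PPARα-null mice was 0.20 and not called, with an adjusted p of 0.143. Without replicates 1 and 3 of the fasted PPARα-null mice, which leaves 1 array in that group, it was 0.45.

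The enzymes that feed oxaloacetate and phosphoenolpyruvate into the pathway from the mitochondrion were not called upon fasting. For pyruvate carboxylase (Pcx, 1416383_a_at) the intensities were 67.2, 64.7 and 99.4 in fed and 69.8, 68.7 and 56.8 in fasted wild-type mice, and 89.8, 73.8 and 106.4 in fed and 87.8, 102.2 and 117.5 in fasted PPARα-null mice. As deposited these ranges overlapped in both genotypes, but relative to the common shift only in wild-type mice. The log2 change in wild-type mice was 0.09 (95% confidence interval -0.29 to 0.48), which turned to -0.22 as deposited and to -0.02 without replicate 2 of the fed wild-type mice. In PPARα-null mice the change was 0.51, with an unadjusted p of 0.0135 just outside the threshold and an adjusted p of 0.0271. It passed the threshold at 0.57 after quantile normalization, at 0.57 after median centring, at 0.54 after cyclic loess and at 0.63 without replicate 3 of the fed PPARα-null mice. The other tested Pcx probe set, a control set at the 3′ end of the transcript, read 13.7 to 17.2 in fasted wild-type mice and 20.7 to 40.6 in the other groups, and its change in wild-type mice was -0.40 (adjusted p = 0.115), whereas it was called lower at -0.72 as deposited (adjusted p = 0.00525) and at -0.51 after quantile normalization (adjusted p = 0.0407). Mitochondrial phosphoenolpyruvate carboxykinase (Pck2, 1425615_a_at) lay between 65.4 and 91.5 on all 12 arrays. Its log2 change of 0.30 in wild-type mice (95% confidence interval 0.05 to 0.54) became -0.02 as deposited, and reached 0.42 and a call when replicate 3 of the fasted wild-type mice was left out. In PPARα-null mice it was 0.12, or -0.20 as deposited, so that no direction can be given for Pck2.

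Glutamate dehydrogenase (Glud1), the mitochondrial enzyme that converts glutamate to 2-oxoglutarate and ammonia, rose on both of its probe sets. On 1416209_at it read 2206, 2061 and 2132 in fed and 3216, 2852 and 3356 in fasted wild-type mice. The same probe set gave 2205, 2256 and 1832 in fed and 4003, 4126 and 3694 in fasted PPARα-null mice. The 4 groups lay in the order of both fed groups, fasted wild-type and fasted PPARα-null mice, and only the fed groups overlapped. The rise was 1.83-fold in wild-type (log2 change 0.87, SE 0.10, adjusted p = 1.68e-04) and 2.35-fold in PPARα-null mice (log2 change 1.23, adjusted p = 7.26e-07). As deposited the log2 changes were 0.56 and 0.91. The mean of this probe set lies above 11 on the log2 scale, where the median shift was -0.17 and not the -0.32 removed. The second probe set, 1448253_at, lay between 1133 and 1273 in fed and between 1659 and 2109 in fasted wild-type mice. In PPARα-null mice it lay between 1171 and 1209 when fed and between 2352 and 2843 when fasted. Its log2 changes were 0.96 in wild-type (adjusted p = 1.18e-04) and 1.45 in PPARα-null mice (adjusted p = 2.87e-07), or 0.65 and 1.13 as deposited.

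The 2 aminotransferases were called upon fasting in PPARα-null mice and not in wild-type mice. Aspartate aminotransferase (Got1, 1450970_at), the cytosolic enzyme that links glutamate with oxaloacetate and aspartate, read 334.7, 455.6 and 569.6 in fed and 354.2, 404.0 and 416.3 in fasted wild-type mice. In PPARα-null mice Got1 read 317.3, 286.2 and 448.0 when fed and 641.7, 676.7 and 617.7 when fasted, above every other array of the study. The log2 change was 0.13 in wild-type mice (95% confidence interval -0.27 to 0.53), -0.18 as deposited and -0.06 without replicate 1 of the fed wild-type mice. PPARα-null mice showed 1.22 (2.33-fold, SE 0.18, adjusted p = 1.23e-04).

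Alanine aminotransferase (Gpt, 1426502_s_at), which makes alanine from pyruvate and the nitrogen of glutamate, read 737.7, 974.6 and 974.5 in fed and 922.9, 765.9 and 974.0 in fasted wild-type mice. PPARα-null mice had 963.3, 1004 and 984.2 when fed and 1566, 1650 and 1479 when fasted. The 3 fasted PPARα-null arrays stood above the 9 others, which lay between 737.7 and 1004. In wild-type mice the log2 change was 0.31 (95% confidence interval 0.05 to 0.57) and not called, and -0.01 as deposited, although without replicate 2 of the fasted wild-type mice it was 0.41 and called. In PPARα-null mice it was 0.98 (1.98-fold, SE 0.12, adjusted p = 2.13e-05).

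**Figure D2:**
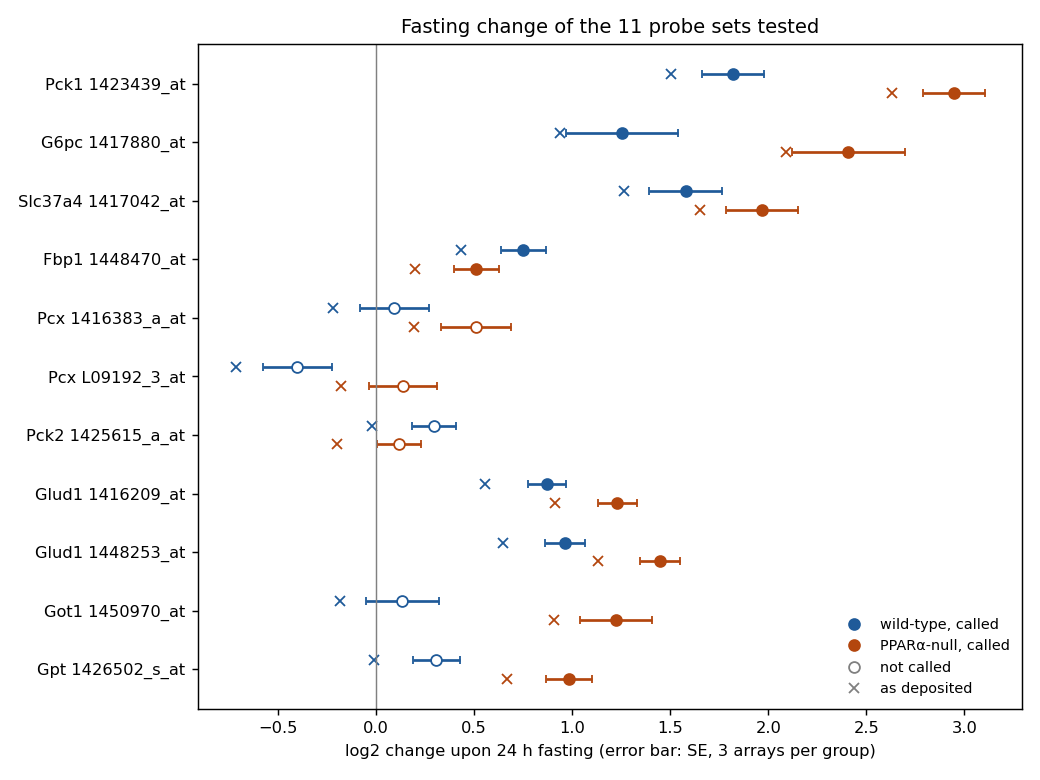
Log2 change upon 24 h fasting of the 11 tested probe sets in wild-type (blue) and PPARα-null mice (orange), with the SE of the limma fit over 3 arrays per group. Filled points were called, open points were not, and crosses give the change as deposited, which is lower by the common shift of 0.32 throughout. Pck1, G6pc and Slc37a4 lie farthest to the right in both genotypes, from 1.25 to 2.95.

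In fed mice the genotypes differed in 1 of the 11 tested probe sets, Pck1, which was lower in PPARα-null mice, while 1.65% of all 9560 tested probe sets were called lower. Its log2 difference was -0.53 (SE 0.16, unadjusted p = 0.00507), and after adjustment over all probe sets p was 0.201. The call was lost at -0.35 without replicate 3 of the fed PPARα-null mice and at -0.45 without replicate 3 of the fed wild-type mice. The other 10 probe sets had differences between -0.36 for Got1 and 0.35 for G6pc and were not called, but Got1 was called lower at -0.57 without replicate 1 of the fed wild-type mice and at -0.56 without replicate 3 of the fed PPARα-null mice.

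In fasted mice 7 of the 11 probe sets were higher in PPARα-null than in wild-type mice, against 14% of all 9217 tested probe sets, and Fbp1 was lower, against 16.8%. The highest difference was that of G6pc, at 2.84-fold (log2 1.50, SE 0.29, adjusted p = 0.00119). Gpt was 1.77-fold higher (log2 0.82, adjusted p = 1.61e-04), Got1 1.65-fold (log2 0.72, adjusted p = 0.00755), Pck1 1.51-fold (log2 0.59, adjusted p = 0.00923) and the second Glud1 probe set 1.37-fold (log2 0.45, adjusted p = 0.00351). Both tested Pcx probe sets were higher in fasted PPARα-null mice, by 0.65 (adjusted p = 0.0110) and 0.82 (adjusted p = 0.00247) on the log2 scale. Fbp1 was lower by a factor of 1.44 (log2 -0.52, adjusted p = 0.00277). Slc37a4, at 0.35 (95% confidence interval -0.05 to 0.75), and Pck2, at -0.17, were not called, and the first Glud1 probe set, at 0.33 with an adjusted p of 0.0179, stayed under the fold threshold. The Pck1 difference was no longer called without replicate 3 of the fasted wild-type mice (0.49) or replicate 1 of the fasted PPARα-null mice (0.51). Likewise the first Pcx probe set was lost without replicate 3 of the fasted wild-type (0.56) or of the fasted PPARα-null mice (0.55), and Glud1 without replicate 2 of the fasted wild-type mice (0.36).

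The change upon fasting was larger in PPARα-null than in wild-type mice for 4 genes when the difference in response itself was tested, against 9.22% of 9874 probe sets. The response differed by 1.13 for Pck1 (SE 0.22, adjusted p = 0.00334), by 1.09 for Got1 (SE 0.26, adjusted p = 0.01001), by 0.68 for Gpt (SE 0.17, adjusted p = 0.0122) and by 0.48 for the second Glud1 probe set (SE 0.14, adjusted p = 0.0288), all on the log2 scale. For Pck1 the fed difference of -0.53 and the fasted difference of 0.59 both enter this value. G6pc had a difference of the same size, 1.15, with an SE of 0.41, a 95% confidence interval of 0.27 to 2.03 and an adjusted p of 0.0564, so that it was not called. G6pc was called at 1.46 without replicate 3 of the fed wild-type mice, at 1.37 without replicate 1 of the fasted wild-type mice and at 1.33 without replicate 1 of the fed PPARα-null mice. Slc37a4 (0.39, interval -0.18 to 0.95) and Fbp1 (-0.24, interval -0.59 to 0.11) showed no called difference, and the first Glud1 probe set had 0.36 with an adjusted p of 0.0813, but was called after median centring (0.45, adjusted p = 0.0450) and with trended and robust variances (adjusted p = 0.0291). The second Glud1 call was lost when any 1 of 7 of the 12 arrays was left out, namely replicates 1 and 3 of the fed wild-type, 2 of the fasted wild-type, 1 and 3 of the fed PPARα-null and 1 and 2 of the fasted PPARα-null mice, with values of 0.39 to 0.48, and also without a level filter (adjusted p = 0.0551). The 3′ control set of Pcx had 0.54 and was called at 0.73 without replicate 3 of the fed PPARα-null mice.

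Markers of other tissues were read beside these values. The enterocyte genes with a probe set, 8 of 10, were all expressed, and their summed intensity as deposited lay between 49208 and 53414 on the fed and between 43039 and 48318 on the fasted arrays. Relative to the common shift 1 of the 8 was higher upon fasting in wild-type mice and none was called in PPARα-null mice. Exocrine pancreas genes, 13 of 16 with a probe set and all 13 above 20 in some group, summed to 661 to 2219 in fed wild-type, 11471 to 23341 in fasted wild-type and 732 to 1275 in fed PPARα-null mice. In fasted PPARα-null mice they summed to 27621 on replicate 1, 648 on replicate 2 and 28629 on replicate 3. On replicate 2, with its low pancreas signal, Pck1 read 2892, G6pc 859.8, Slc37a4 374.1, Glud1 4126, Got1 676.7 and Gpt 1650, each above the highest array of fed PPARα-null mice. Without replicates 1 and 3, 7 probe sets were called higher upon fasting in PPARα-null mice, against 14% of all probe sets. Between the fasted genotypes 4 were then higher, against 10.7%, and Fbp1 was lower, while Pck1 at 0.48 (adjusted p = 0.163), the first Pcx probe set at 0.66 and Got1 at 0.79 were no longer called. The response remained called as different for Pck1, Got1 and Gpt, against 5.66%. No such array exists among the fasted wild-type mice, and the part of the pancreas signal in their values was not tested in this way. With the pancreas signal as a covariate in the fit all 5 counts of called members were the same, while the calls upon fasting in wild-type mice over the whole array went from 1636 to 1028. In wild-type mice every fasted array had a higher pancreas signal than every fed array. The unchanged counts therefore cannot tell this signal and fasting apart there.

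**Figure D3:**
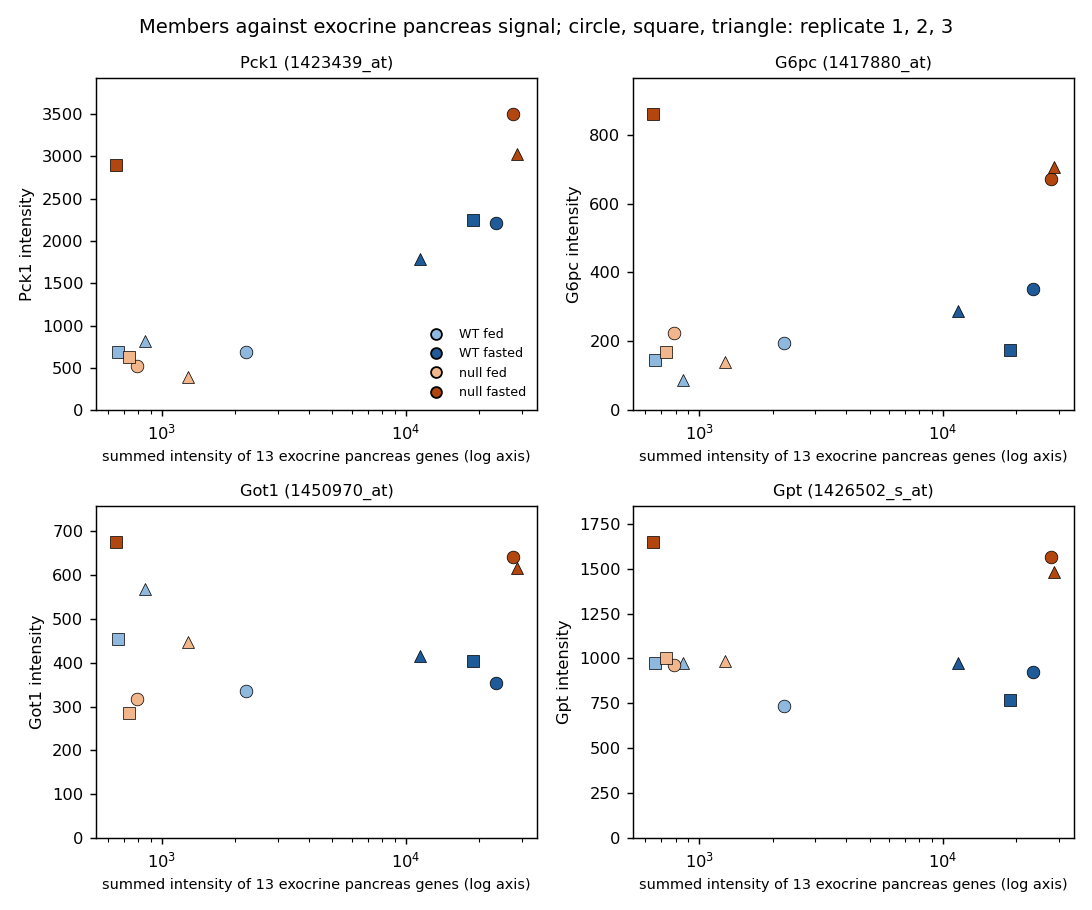
Intensity of Pck1, G6pc, Got1 and Gpt (linear axes from 0) against the summed intensity of 13 exocrine pancreas genes (log axis) on the 12 arrays. Replicate 2 of the fasted PPARα-null mice, the dark orange square, lies at a pancreas signal of 648 and at Pck1 2892, G6pc 859.8, Got1 676.7 and Gpt 1650.

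Markers of liver, kidney cortex and adipose tissue, known for high levels of some of these genes, were read as well. Of 10 liver genes only Ttr, the thyroid hormone carrier transthyretin, was above 20 in any group, at 15.6 to 17.7 in fed and 26.7 to 47.6 in fasted wild-type mice and at 123 to 190 in fasted PPARα-null mice. The summed liver signal moved with the group, from 67.7 to 68.6 in fed and 79.2 to 96.3 in fasted wild-type to 69.4 to 74.8 in fed and 176.5 to 242.3 in fasted PPARα-null mice. Albumin (Alb), the defining liver transcript, was at 7.88 or lower on every array. None of 4 kidney cortex genes was above 20, with sums of 19.3 to 25.8 on all arrays. Of 6 adipose genes 3 were above 20, with sums of 207 to 449, while adiponectin (Adipoq) was at 13.3 or lower. One of the 3, the lipid droplet gene Cidec, was called higher upon fasting in PPARα-null mice, at 162 to 219 in fed and 261 to 294 in fasted PPARα-null mice against 157 to 254 and 166 to 213 in wild-type mice. Of the adipose genes tested between genotypes, 1 of 2 was called higher in fasted and 1 of 3 lower in fed PPARα-null mice. Genes of crypt and cycling cells, goblet cells, smooth muscle and leukocytes had lower deposited sums in the fasted groups, in which all intensities read lower. Relative to the common shift, 0 of 3 tested crypt and cycling genes, 2 of 3 goblet cell genes, 3 of 5 smooth muscle genes and 2 of 3 leukocyte genes were called lower upon fasting in wild-type mice. In PPARα-null mice these counts were 2, 1, 0 and 2. Over all tested probe sets 7.43% fell in wild-type and 23.6% in PPARα-null mice. The leukocyte genes, 3 of 5 above 20, summed to 677 to 764 in fed and 404 to 437 in fasted wild-type mice and to 579 to 662 and 181 to 234 in PPARα-null mice. The ileal bile acid binding protein gene Fabp6 read 6457 to 7898 in fed and 2043 to 2798 in fasted wild-type mice and 5992 to 8395 and 5584 to 6227 in PPARα-null mice. The ileal bile acid carrier gene Slc10a2 read 29.2 to 38.8 in fed and 25.5 to 30.9 in fasted wild-type mice and 22.2 to 37.2 and 46.9 to 48.2 in PPARα-null mice, and both ileal genes were called higher in fasted PPARα-null than in fasted wild-type mice. Smooth muscle genes, all 5 above 20, summed to 4133 to 4933 in fed and 1867 to 3048 in fasted wild-type mice and to 3859 to 4268 and 2749 to 3013 in PPARα-null mice. The part of any of these cell types in the changes of the 9 genes was not tested.

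Among other genes of these pathways both rises and falls were found. The lists of 114 genes held 94 with a probe set, of which 65 were tested upon fasting. In wild-type mice 5 of the 65 rose and 1 fell, with a median change of 0.03, and in PPARα-null mice 13 rose and 11 fell, with a median of 0.11. The medians over all genes tested were 0.03 and -0.05. Over all probe sets 10% rose and 7.43% fell in wild-type and 18.6% and 23.6% in PPARα-null mice, so that the counts over all lists were near or below these shares. As deposited, 2 of the 65 rose and 20 fell in wild-type mice, and 7 rose and 22 fell in PPARα-null mice.

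Enzymes of the reversible steps, which glycolysis and gluconeogenesis share, included 10 tested genes. None rose in wild-type mice and only Eno3, the muscle-type enolase, fell, by 1.25 on the log2 scale (SE 0.16, adjusted p = 2.96e-04), and in PPARα-null mice its change was -1.50. There 3 of the 10 fell, Eno3, the triose phosphate isomerase Tpi1 (-0.43) and the phosphoglycerate mutase Pgam1 (-0.44), and the mitochondrial aspartate aminotransferase Got2 rose (0.68). The Got2 call was lost as deposited (0.36), that of Tpi1 after median centring (-0.37) and that of Pgam1 with the pancreas covariate (-0.36). The malate dehydrogenases Mdh1 and Mdh2, which move oxaloacetate between mitochondrion and cytosol as malate, had 0.08 and -0.10 in wild-type mice and were not called, although Mdh2 was called lower as deposited, at -0.42. Among 7 tested genes of the one-way glycolytic steps none was called in wild-type mice and Pklr and Pfkfb3 fell in PPARα-null mice. The Pklr call was lost with the pancreas covariate (-0.52). The abundant Pkm (-0.14) and Pfkp (-0.10) were not called in wild-type mice, but were called lower as deposited, at -0.46 and -0.42. Of 4 tested isozymes and side enzymes, which include Fbp2 (0.34) and Gpd2 (-0.16), none was called in either genotype. Gpd2 was called lower in wild-type mice as deposited, at -0.48, and Fbp2 higher without replicate 2 of the fed or of the fasted wild-type mice.

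Glutamine and glutamate metabolism held 13 tested genes, of which 2 rose in wild-type mice and 4 rose and 3 fell in PPARα-null mice, against the same shares over all probe sets. As deposited these counts were 1 rise and 4 falls in wild-type and 2 rises and 5 falls in PPARα-null mice. Glutamine synthetase (Glul), which runs opposite to glutamine breakdown, read 58.2 to 111.8 in fed and 102.0 to 184.7 in fasted wild-type mice and 82.2 to 104.7 and 233.2 to 259.7 in PPARα-null mice, with log2 changes of 1.10 (adjusted p = 0.00740) and 1.77 (adjusted p = 6.22e-05). The wild-type call of Glul was lost with the pancreas covariate (0.98, adjusted p = 0.138). Nags, which makes the activator of carbamoyl phosphate synthetase, rose by 0.49 in wild-type mice but by 0.18 and without a call as deposited. The abundant Oat (-0.07) and Cps1 (-0.22), enzymes of ornithine and citrulline formation, were not called in wild-type mice, but were called lower as deposited, at -0.39 and -0.53. Proline oxidase (Prodh), named after its values were seen, rose by 2.30 in PPARα-null mice (adjusted p = 1.48e-05), against 0.79 and no call in wild-type mice, a difference in response of 1.51 (adjusted p = 0.0121). In wild-type mice the change of Prodh ranged from 0.38 to 1.08 without single arrays, and it was called at 1.08 without replicate 2 of the fasted wild-type mice. It was also called with array weights, at 0.85, and with the replicate number as a block, at 0.79. Without replicates 1 and 3 of the fasted PPARα-null mice, which leaves 1 array in that group, the difference in response of Prodh was 1.59. Aldh18a1, which leads glutamate towards proline and ornithine, fell by 1.003 in PPARα-null mice and Oat by 0.51, and Gclc, which joins glutamate with cysteine for glutathione, rose by 1.01 in PPARα-null mice, against -0.43 and no call in wild-type mice. As deposited, Gclc was not called in PPARα-null mice, at 0.69, and was called lower in wild-type mice, at -0.75. The difference in response was -1.04 for Aldh18a1 (adjusted p = 0.00455) and 1.44 for Gclc (adjusted p = 0.00778). Aldh18a1 and Gclc too were named after their values were seen.

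**Figure D4:**
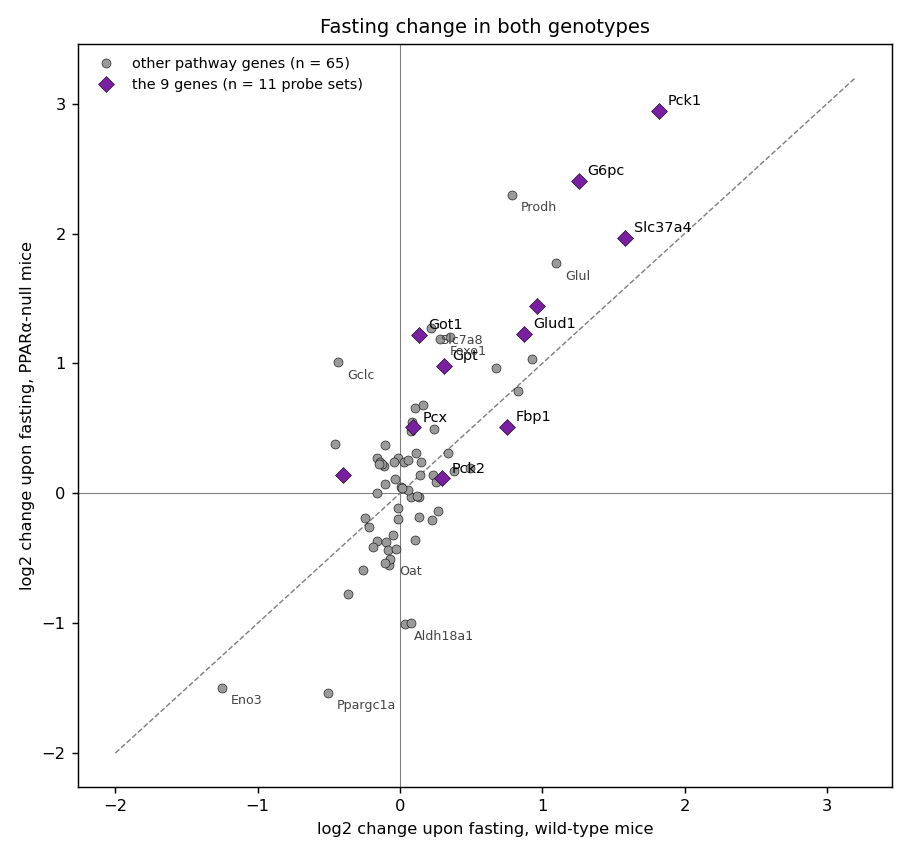
Log2 change upon fasting in wild-type (x axis) and PPARα-null mice (y axis) of the 11 tested probe sets of the 9 genes (diamonds) and of 65 other genes of the same pathways (circles); the dashed line marks equal change. Pck1 at 1.82 and 2.95 and G6pc at 1.25 and 2.41 lie farthest to the upper right, and Fbp1, at 0.75 and 0.51, lies below the line.

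None of 6 tested carriers of glutamine, glutamate and aspartate was called in wild-type mice, with Slc3a2 at 0.15 and Slc25a22 at 0.14, and 1 rose in PPARα-null mice. This was Slc7a8, a basolateral amino acid exchanger, which rose by 1.28 (adjusted p = 3.25e-06) with a difference in response of 1.06 (adjusted p = 0.00103). Of 4 mitochondrial and monocarboxylate carriers none was called in wild-type mice, with Slc16a1 at 0.12 and Mpc1 at 0.07. In PPARα-null mice 1 rose, the pyruvate carrier Mpc1 (0.48), and 1 fell, the oxoglutarate carrier Slc25a11 (-0.53), and the Mpc1 call was lost as deposited. The 9 tested genes of glucose 6-phosphate, glycogen and glucose export gave no call in wild-type and 3 rises in PPARα-null mice. These rises were of Pgm1, Slc2a2 and Slc5a1, against 18.6% of all probe sets that rose. Only that of Pgm1 was called as deposited. The calls of Slc2a2 and Slc5a1 were also lost after quantile normalization, at 0.49 and 0.36. Leaving out single arrays ended the Slc2a2 call in 4 of 12 fits and the Slc5a1 call in 1. The glucose carriers Slc5a1 (0.24) and Slc2a2 (0.08) were not called in wild-type mice.

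Regulators of gluconeogenic genes held 13 tested genes, of which 3 rose in wild-type mice, against 10% of all probe sets. These were Ppara by 0.93 (adjusted p = 0.0131), the liver-enriched factor Cebpa by 0.83 (adjusted p = 0.00446) and Rxra, the partner of PPARα on DNA, by 0.67 (adjusted p = 0.00219). As deposited only Cebpa of these 3 was called, and the Ppara call was lost with the pancreas covariate (0.99, adjusted p = 0.118). The abundant Hnf4a (-0.08) and Nr3c1 (0.27) were not called in wild-type mice, but Hnf4a was called lower as deposited, at -0.40, and Nr3c1 higher without replicate 1 of the fasted wild-type mice, at 0.41. In PPARα-null mice Ppargc1a and Hnf4a fell, against 23.6% of all probe sets. There 4 regulators rose, against 18.6%, namely Foxo1, Cebpa (not called as deposited, at 0.47), Rxra and Ppara. The Ppara probe set is 1 of these 4 although it was under 20 on every PPARα-null array, with means of 7.23 in the fed and 11.9 in the fasted state (log2 change 1.04, adjusted p = 0.00223). The transcription factor Foxo1 rose by 1.19 (adjusted p = 6.22e-06), and the coactivator Ppargc1a fell by 1.54 (adjusted p = 1.72e-05), from 89.8 to 96.1 in fed to 20.4 to 33.1 in fasted PPARα-null mice. Their responses differed between the genotypes by 0.90 and -1.03. Without replicates 1 and 3 of the fasted PPARα-null mice, which leaves 1 array in that group, the difference of Ppargc1a was weaker, at -0.67. Klf15, a factor that acts on genes of amino acid breakdown, was too low in fed wild-type mice for the fasting test at 10.5 to 18.0, and reached 50.3 to 81.2 in fasted PPARα-null against 15.7 to 22.1 in fasted wild-type mice, a log2 difference of 1.73 (adjusted p = 2.80e-05). Foxo1, Ppargc1a, Klf15 and Slc7a8, and the genes named only for their calls in PPARα-null mice, were named after their values were seen.

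The genes whose pattern over the 12 arrays was most like that of the strongest 3 members were sought among 5717 other genes, as a description over 4 groups of 3 arrays that share their feeding state. Closest to Pck1 were Ndrg1 (Pearson r = 0.987), Creb3l3 (0.982) and Lamb3 (0.978). Closest to G6pc were Hnrnpa1 (0.983), Rnf128 (0.975) and Asap1 (0.971). Closest to Slc37a4 were Fxr1 (0.988), Hpgd (0.982) and Camk2g (0.982). Creb3l3, which encodes a membrane-bound transcription factor of liver and intestine, had mean intensities of 1375 in fed and 1628 in fasted wild-type mice and of 1136 and 1782 in PPARα-null mice.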

How the data were processed

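Linear intensities of 22690 probe sets on 12 Affymetrix 430A arrays were used as deposited. Per the labels the authors normalized the arrays with GCRMA 2.20, which corrects background, normalizes and summarizes probes. The deposited intensity of the fed arrays has 2 decimals and that of the fasted arrays more, on a lower distribution. Precision is limited by 3 arrays per group. Genes were named from the platform annotation, in which 20393 probe sets had 1 symbol, 691 several and 1606 none.

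Values were log2-transformed and fitted with limma 3.58.1 (R 4.3.3), with 1 mean per group over all 12 arrays and empirical Bayes variances (12.67 degrees of freedom). Fasting contrasts kept probe sets with a mean over 20 in fed wild-type mice, and the median difference of -0.32 was subtracted. Genotype contrasts kept a mean over 20 in either group, and the difference in response in any group. The level of 20 and the thresholds on p and fold follow the study's methods, and the adjusted p for the difference in response does not come from them. Adjusted p-values are Benjamini-Hochberg over all probe sets kept. The script was checked on simulated data. Alternatives concerned scaling, level filter, call rule, variance model, array weights, replicate number as a block and each array left out. Leaving out replicates 1 and 3 of the fasted PPARα-null mice, and the pancreas covariate, were added after seeing the data. The closest arrays correlated at r = 0.997 and none were identical.

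The named genes were all probe sets of the 9 genes, and per pathway list up to 3 genes with the largest called rise and fall in wild-type mice and the 2 most abundant genes not called. For likeness, 3 genes per pattern were named. The members and lists were chosen with earlier results of these data known. Promoter sequences came from RefSeq (GRCm38.p6), where 8 of the 9 genes had an entry. Figures were drawn with matplotlib 3.10.9.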

Additional observations from a re-analysis of the deposited data

Results flagged for a closer look

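These 4 results stood out because the change upon fasting differed between wild-type and PPARα-null mice by a test of the difference itself. The log2 change in PPARα-null minus that in wild-type mice was 1.13 for Pck1, the cytosolic phosphoenolpyruvate carboxykinase, and 1.09 for Got1, the cytosolic aspartate aminotransferase. It was 0.68 for Gpt, the alanine aminotransferase, and 0.48 for 1 of the 2 probe sets of Glud1, the glutamate dehydrogenase. With the groups at 3 arrays no single array was tested as an outlier.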

How the results depend on the processing

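The number of members called upon fasting was 6 of 11 in wild-type mice, with 6 to 7 when single arrays were left out, and 8 in PPARα-null mice, with 8 to 9. For the difference in response it was 4, with 3 to 5. Between fed genotypes the single call of Pck1 became 0 at an adjusted p under 0.05 and 0 in a fit of only the 2 fed groups, and 0 to 2 members were called when single arrays were left out. Between fasted genotypes 8 members were called, and 6 to 8 without single arrays. Over all probe sets 1636 of 9370 were called upon fasting in wild-type and 3955 of 9370 in PPARα-null mice. For the difference in response 2354 of 9874 were called, between fed genotypes 254 of 9560 and between fasted genotypes 2841 of 9217.

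Among the members and the named genes of the pathway lists, changes of sign were found only for values that were not called. As deposited, without the common shift, the log2 change in wild-type mice turned to -0.0182 for Pck2, -0.22 for Pcx, -0.18 for Got1, -0.00842 for Gpt, -0.24 for Mdh1, -0.17 for Slc3a2, -0.18 for Slc25a22, -0.20 for Slc16a1, -0.24 for Mpc1, -0.0790 for Slc5a1, -0.23 for Slc2a2 and -0.0457 for Nr3c1, and in PPARα-null mice to -0.20 for Pck2 and -0.18 for the 3′ control set of Pcx. Mdh1 turned to -0.0546 after quantile normalization and -0.0130 after cyclic loess, and Slc2a2 to -0.00405 with array weights. The fed genotype difference of Pck2 turned from 0.00833 to -0.0171, -0.0424 and -0.0351 after quantile normalization, median centring and loess and to -0.000164 with array weights. Without single arrays the range in wild-type mice was -0.0169 to 0.29 for Pcx, -0.0598 to 0.31 for Got1, -0.00629 to 0.21 for Slc16a1 and -0.0191 to 0.25 for Slc2a2. Between fed genotypes it was -0.026 to 0.0616 for Pck2, -0.21 to 0.0659 for Slc37a4, and -0.0851 to 0.065 and -0.0778 to 0.00604 for the 2 probe sets of Glud1.

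Over the whole array, 940 probe sets rose and 696 fell in wild-type mice. As deposited these were 233 and 2971, after quantile normalization 736 and 944, after median centring 817 and 850, and after cyclic loess 773 and 879. The total of 1636 was 3195 without a level filter, 772 at a level over 100 and 1028 with the pancreas covariate. In PPARα-null mice the total of 3955 became 7348 without a filter and 1988 at a level over 100. The 254 calls between fed genotypes became 138 at a level over 100 and 60 by adjusted p, and the 2841 between fasted genotypes became 1399 at a level over 100. The 2354 differences in response became 1331 at a level over 100.

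Replicate numbers did not pair the arrays. The 18 same-number correlations ranged from -0.21 to 0.25, 5 of them over 0.1, and 5 of 12 arrays correlated best with their own number. With the replicate number as a block 6 members were called upon fasting in wild-type and 8 in PPARα-null mice, 1 between fed and 8 between fasted genotypes, and 5 for the difference in response, where G6pc, at 1.15, was added at an adjusted p of 0.0404. Over all probe sets this fit called 1627 and 3950 of 9370 upon fasting. Between fed and fasted genotypes it called 270 of 9560 and 2813 of 9217, and for the difference in response 2254 of 9874. G6pc was also called after median centring, at an adjusted p of 0.0457. The cause of these differences was not tested.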
